A study of Mus musculus with 6 samples.

Results

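This account describes the stretches of mouse chromosome 7 on which regions enriched for H3K9me3, trimethylation of lysine 9 of histone H3, lie close together in thymocytes. Members were chosen by position in 2 region lists, 1 from a wild-type and 1 from a KAP1 knockout library. Wild-type regions of chromosome 7 separated by gaps of at most 100 kb were chained, and chains of 3 or more regions were kept. This gave 33 chains with 433 of the 552 wild-type regions of the chromosome, and of the 3748 in the whole wild-type list. The knockout list of 605 regions holds 70 on chromosome 7, and 59 of them overlap the span of a chain by 1 base or more. The members are thus 492 of the 4353 regions in both lists.

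Chromatin came from total thymocytes, which the labels call T cell progenitors, of mice on a C57BL/6 / sv129sv background. One group is wild type and the other carries a T cell-specific Kap1 knockout, so any cell outside that lineage in the preparation keeps the gene. Which Cre drives the deletion, how old the mice were and how many were pooled is not stated in the labels. The series has 6 samples, of which the 2 KAP1 immunoprecipitations and 2 input libraries were not analysed here. With 1 H3K9me3 library per genotype, no difference below has a replicate error or a test, and the lists give positions only, so depth and signal strength are unknown. A missing call means only that a region was not called.

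H3K9me3 is a mark of heterochromatin. KAP1, the product of Trim28, is a corepressor: KRAB zinc finger proteins tether it to their target sequences, and it in turn brings in SETDB1, which deposits the mark. Repeats of retroviral origin are known targets of this pathway, and the mark is also known to cover the clusters of zinc finger genes themselves. Chromosome 7 is rich in gene families that arose by duplication. In the RefSeq table of GRCm38, its 2030 protein-coding genes include 104 zinc finger genes (names in Zfp, Zscan, Zkscan, Zik or Zim), and 87 of these lie before the midpoint of the gene order. All 126 of its vomeronasal type 1 receptor genes (Vmn1r, pheromone receptors) lie before it, as do 37 of 52 vomeronasal type 2 receptor genes (Vmn2r). The same stretch holds 35 of 36 secretoglobin genes (Scgb, small secreted proteins), all 26 kallikrein genes (Klk, serine proteases) and 15 of 19 Mas-related receptor genes (Mrgpr). Olfactory receptor genes (Olfr) are the exception, with 8 of 239 before the midpoint. That table is on another build than the regions, which are on mm9, so which chain lies on which genes was not analysed here, and chains are numbered 1 to 33 from the proximal end of the chromosome.

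Most chains lie proximally. Of the 33 chains, 22 with 309 wild-type regions end before position 35 Mb, and 5 with 88 regions lie between 35 and 51 Mb. The other 6 chains, with 36 regions, lie past 51 Mb, and 45.3 Mb without any chain separates chain 30 from chain 31. Chains hold between 3 and 73 wild-type regions (median 8) and span 10.9 to 1688 kb (median 157 kb). How tightly they are filled varies widely, since wild-type regions cover between 2.46% and 75.2% of the span of a chain (median 18.4%). All spans together come to 8.01 Mb. The rule sets the number of regions and the gaps, so these are descriptions. The largest gap kept inside a chain is 94.7 kb, and the smallest that ended one is 104 kb. Just inside the size limit are 3 chains of 3 regions, covering 4.17 to 5 kb each, and none of their 9 regions overlaps a knockout region. Just outside it are 23 groups of 2 regions, covering 1.15 to 13.3 kb each, in which 2 of 46 regions do.

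Most of the marked sequence in the chains was called in the wild-type library alone. A wild-type region that shares 1 base or more with a knockout region is called partnered here. Of the 433 wild-type regions, 74 were partnered, or 17.1% (Wilson 95% interval 13.8 to 20.9%, counting error only), close to the 17.5% of the whole wild-type list (656 of 3748). The chain regions are wider, however, with a median of 2163 bp against 1292.5 bp in that list, and shares by width are given below. Wild-type regions covered 1624 kb in the chains and knockout regions 434 kb within the same spans, a ratio of 3.74. The spans are set by wild-type regions alone, which favours wild-type sequence in this ratio. In the chains of the other autosomes the same sums are 7091 and 3123 kb. On chromosomes 12 and 13 alone they are 965 and 129 kb. Of the wild-type bases, 23.4% also lay in a knockout region, against 38.4% over the whole wild-type list. In the other direction, knockout regions were chosen by overlap with spans that wild-type regions define, which favours a wild-type counterpart. Of the 59, 58 had one (98.3%), beside 91.4% of the whole knockout list, which was not chosen in this way. The exception is a 1.77 kb knockout region in chain 4 from 7429159 to 7430923, which lies between wild-type regions 1.38 kb before it and 2.71 kb after it. The chains were unequal in this. Of the 33, 16 hold at least 1 knockout region (48.5%), beside 51.6% of the 215 such chains of all chromosomes, and 17 hold none.

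**Figure D1:**
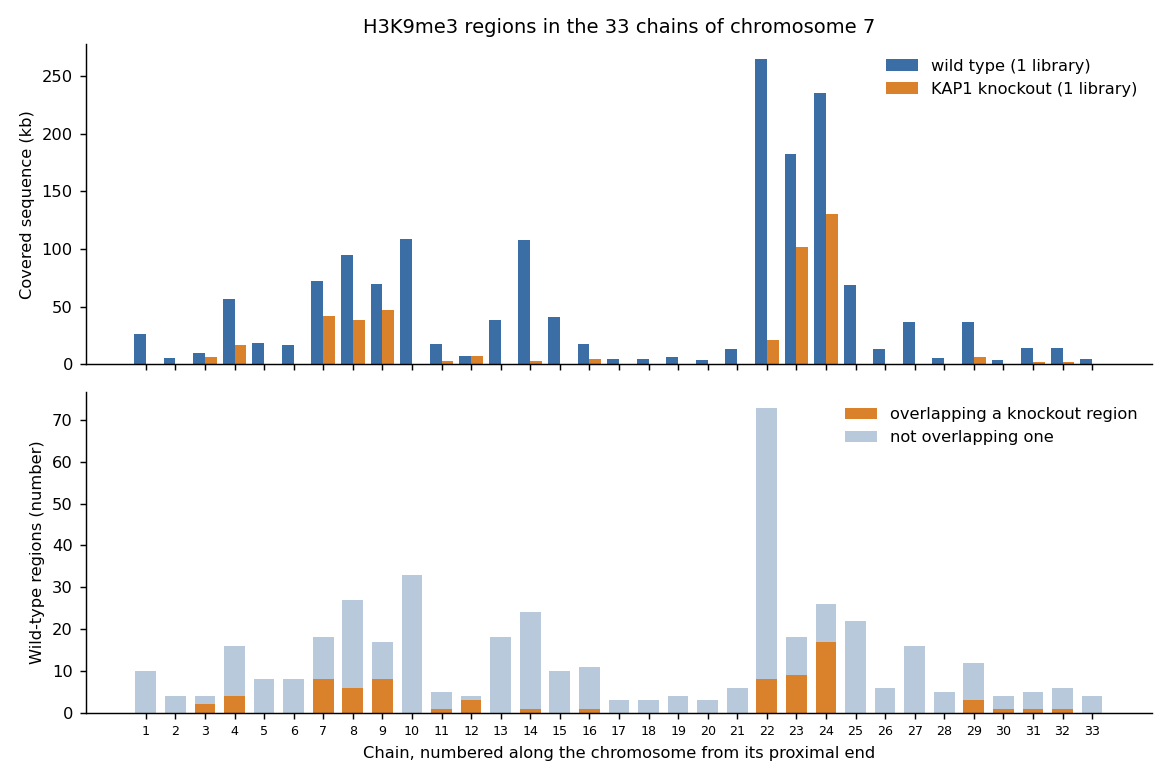
Covered sequence in kb in the wild-type and the knockout list (upper bars) and the number of wild-type regions with and without an overlapping knockout region (lower bars) in each of the 33 chains, in order along the chromosome. Chains 23 and 24 carry 102 and 131 kb of knockout regions, while chain 22, with most wild-type regions, carries 21.3 kb and chain 10 none.

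Of the sequence called in the knockout library, more lay in chains 23 and 24 than in any other chain. These 2 were singled out after their values were seen. Chain 23 runs from 39061190 to 39356168 and chain 24 from 46356930 to 46669719. In chain 23, 18 wild-type regions cover 183 kb, or 61.9% of the span, and 8 knockout regions cover 102 kb. In chain 24, 26 wild-type regions cover 235 kb, or 75.2% of the span, and 14 knockout regions cover 131 kb. The pair accounts for 53.5% of all knockout sequence in the chains, and for 25.7% of all wild-type sequence there. Partnered were 9 of 18 wild-type regions in chain 23 (50.0%, Wilson 29.03 to 71.0%) and 17 of 26 in chain 24 (65.4%, 46.2 to 80.6%). Some of these overlaps are slight: knockout regions cover from 6.72 to 100% of a partnered region in chain 23, and from 1.88 to 100% in chain 24. By length the order turns, with 54.4% of the wild-type bases of chain 23 and 51.6% of those of chain 24 in a knockout region. Without these chains the share of partnered regions falls from 17.1% to 12.3% (48 of 389), and the ratio of wild-type to knockout sequence rises from 3.74 to 5.98.

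Both are made largely of wide regions. The median gap between wild-type regions is 2.64 kb in chain 23 and 1.82 kb in chain 24, against 11.5 kb in chain 22, but gaps as narrow occur in chains 29 (2.28 kb) and 33 (2.11 kb). Their regions of 10 kb or more number 15 of 44, and 14 of these were partnered. Of the 6 widest partnered wild-type regions on the chromosome's chains, 5 are here. The widest, 35.5 kb from 39311285 to 39346818, overlaps a knockout region of 22.9 kb from 39312030 to 39334886. Next comes a 35.1 kb region from 46571554 to 46606606 over the widest knockout region of any chain, 27.2 kb from 46571858 to 46599086. In chain 23, regions of 29.8 kb (from 39232231) and 28.9 kb (from 39196034) overlap knockout regions of 25.3 and 20.5 kb. The fifth, 21.2 kb in chain 24 from 46476715 to 46497923, overlaps a 17.8 kb knockout region. In each of these 5 the knockout region is the narrower one. Partnered regions were wider than the others within each chain, with medians of 11922 and 2804 bp in chain 23 and 10175 and 3543 bp in chain 24. A wide region meets any other list more readily than a narrow one, and what part width has in the overlap was not tested.

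**Figure D2:**
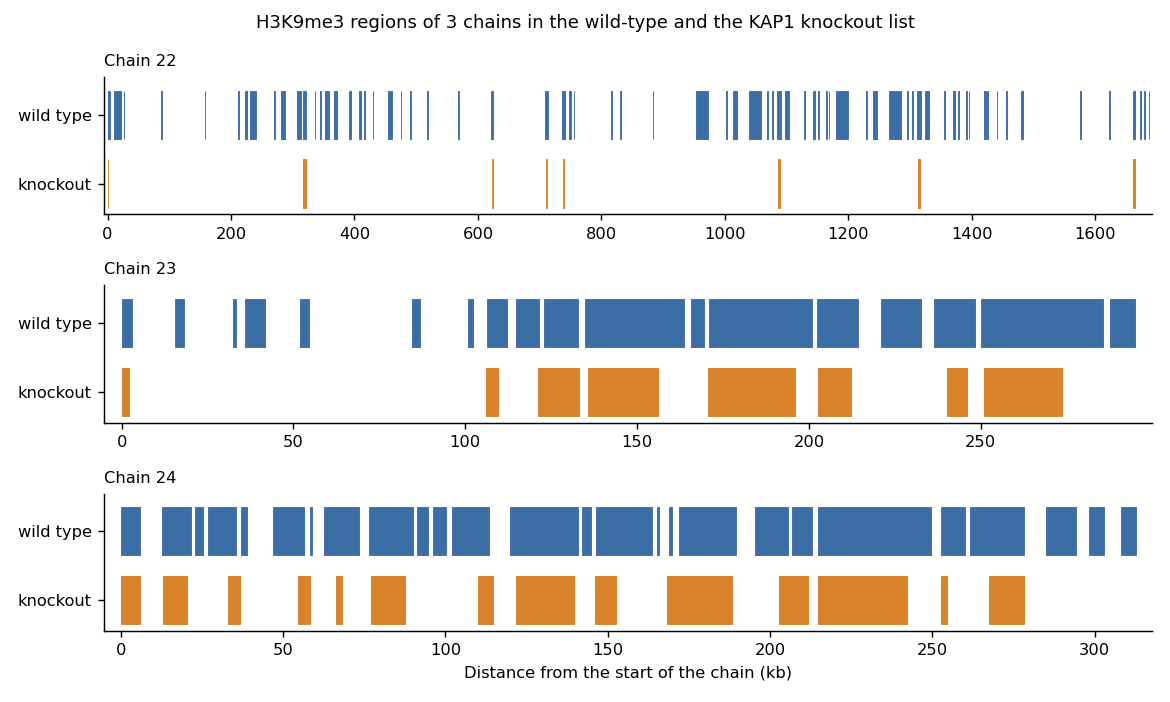
Regions of chains 22, 23 and 24 in the wild-type (upper row) and knockout (lower row) list, drawn to scale by distance in kb from the start of each chain. The 8 knockout regions of chain 22 are scattered over 1688 kb, while those of chains 23 and 24 cover 34.5% and 41.8% of the span.

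Chain 22, from 32477056 to 34164607, is the largest by number and length, and little of it was called in the knockout. Its 73 wild-type regions cover 265 kb, 15.7% of the span, and its 8 knockout regions cover 21.3 kb. Partnered were 8 of 73 regions (11.0%, Wilson 5.66 to 20.2%), and 6.84% of the wild-type bases lay in a knockout region. Here the partnered regions are of middling width, 2907 to 5759 bp, and none of the 5 regions of 10 kb or more was partnered. The 4 widest unpartnered regions of all chains lie here, 19.1 to 19.4 kb wide. They start at 33430234, 33516118, 33657124 and 33743013. The other unpartnered regions named by rule are one of 14.4 kb in chain 29, starting at 66926978, and one of 14.3 kb in chain 25, starting at 48431359.

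Among the proximal chains, 4, 7, 8 and 9 hold 4 or 5 knockout regions each. Chain 4 runs from 7230511 to 7489648 with 16 wild-type regions, chain 7 from 9117067 to 9349973 with 18, chain 8 from 9571386 to 10069295 with 27, and chain 9 from 10428856 to 10660642 with 17. Wild-type regions cover 56.4, 72.7, 94.8 and 69.5 kb in these chains, and knockout regions 16.9, 42.0, 38.5 and 47.1 kb. Partnered were 4 of 16 regions in chain 4, 8 of 18 in chain 7, 6 of 27 in chain 8 and 8 of 17 in chain 9. By length, 51.9% of the wild-type bases of chain 9, 46.9% of those of chain 7, 34.7% in chain 8 and 23.4% in chain 4 lay in a knockout region. Together these 4 chains, grouped after their values were seen, hold 33.3% of the knockout sequence of all chains, and 18.1% of the wild-type sequence. They are not an unbroken block: between chains 4 and 7 lie chain 5, from 7645399 to 7709008, and chain 6, from 8881945 to 8951082. Each of these has 8 wild-type regions, over 18.6 and 17.1 kb, and no knockout region.

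A wide knockout region recurs in 3 of these chains with nearly the same layout. In chain 7 it is 23.03 kb from 9174609 to 9197634 and joins wild-type regions of 17.2 and 4.16 kb into 1 call. In chain 8 it is 22.6 kb from 9893883 to 9916476 and joins regions of 17.2 and 4.16 kb. In chain 9 it is 23.05 kb from 10588071 to 10611118 over regions of 4.16 and 20.5 kb, with the narrow region first. The 20.5 kb region of chain 9, from 10592400 to 10612873, completes the list of the 6 widest partnered wild-type regions. Over all chains, 15 of the 59 knockout regions joined 2 or more wild-type regions, and no wild-type region was broken into 2 knockout regions.

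In 6 of the 16 chains with 10 or more wild-type regions no knockout region was called. The largest is chain 10, from 11363110 to 12211575, with 33 wild-type regions over 109 kb and a widest region of 13.7 kb. There, 0 of 33 partnered regions allows a share of up to 9.09% by counting error. Chain 25, from 48244909 to 48593642, has 22 regions over 69.0 kb, and its 0 of 22 allows up to 13.6%. Chain 13, from 15241381 to 15712693, has 18 regions that cover only 8.19% of its span, and chain 27, from 50253299 to 50482766, has 16 regions. Chain 1, the most proximal, from 3009440 to 3116549, and chain 15, from 17877411 to 18184281, have 10 regions each. Wide regions occur in this group too: chain 10 holds 3, chain 15 holds 2 and chain 25 holds 1 of 10 kb or more.

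A further 3 chains of this size hold a single knockout region. In chain 14, from 15862538 to 16332854, 24 wild-type regions cover 107 kb with a median width of 4311 bp, and only 1 of them was partnered. That region, 2.86 kb wide, is not among its widest, and its knockout partner of 2.93 kb has edges within 276 bp of it. Chain 16, from 18960885 to 19238022, has 11 regions and 1 partnered. In chain 29, from 66926978 to 67045807, the knockout region of 6.62 kb touches 3 of 12 wild-type regions. Among the smaller chains, chain 3, from 6493725 to 6575848, stands out in the fit of its calls. Its regions of 3477 and 2945 bp meet knockout regions of 3481 and 2821 bp whose edges differ by 1 to 123 bp.

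Wider wild-type regions were more often partnered, as in the whole list, but the widest class of chromosome 7 was split. In the chains, 6 of 94 regions under 1 kb (6.38%), 11 of 174 of 1 to under 3 kb (6.32%), 38 of 130 of 3 to under 10 kb (29.2%) and 19 of 35 of 10 kb or more (54.3%, Wilson 38.2 to 69.5%) were partnered. In the chains of the other autosomes, the values in the same order are 6.14, 9.26, 28.2 and 74.0% (111 of 150 in the widest class, 66.4 to 80.4%). Over the whole wild-type list they are 7.06, 11.7, 33.9 and 73.5%, above the chains of chromosome 7 in each class. In the chromosome 7 chains other than 23 and 24, 5 of 20 regions of 10 kb or more were partnered (25%, 11.2 to 46.9%). In chains 23 and 24, 14 of 15 were (93.3%, 70.2 to 98.8%). Chains 23 and 24 were singled out after their knockout values were seen, so this contrast was drawn with the outcome known. Its intervals do not allow for that choice. Of the 15 unpartnered regions of that width in other chains, 5 lie in chain 22. The widest of these, of 19.1 to 19.4 kb, are matched copies in a recurring layout described below. In chain 14, unpartnered regions of 10050 and 10046 bp are matched copies too. The intervals treat regions as independent, which neighbours in a chain and copies of a layout are not. No test of these differences was made.

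**Figure D3:**
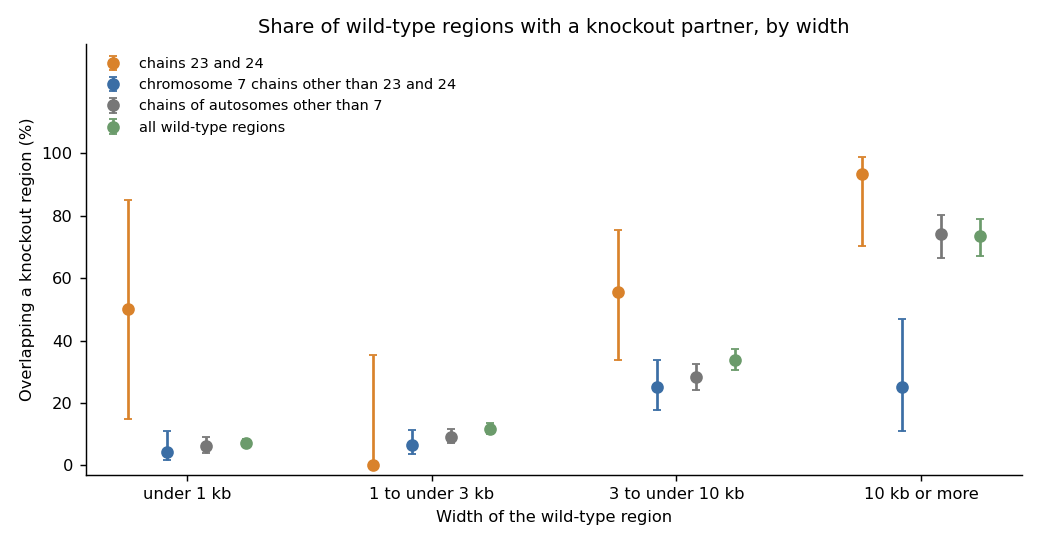
Share of wild-type regions that overlap a knockout region, in percent, by width class, for 4 sets of regions, with Wilson 95% intervals for counting error. In the class of 10 kb or more, chains 23 and 24 reach 93.3% and the other chains of chromosome 7 reach 25%. Chains 23 and 24 were singled out after their values were seen.

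Where a wild-type and a knockout region met 1 to 1, the knockout region was nearly always the narrower. There are 43 such pairs, with a narrower knockout region in 40 (93.0%, Wilson 81.4 to 97.6%), beside 76.6% of the 444 pairs of the whole lists. The interval treats pairs as independent, although some repeat the same widths and edges at another place, as described below. The median log2 ratio of knockout to wild-type width was -0.64 (quartiles -1.31 and -0.27), a knockout region 0.641 times as wide, against -0.16 over all 444 pairs. The median was -0.64 in chains 23 and 24 (18 pairs), -0.48 in chain 22 (8 pairs) and -1.05 in the other chains (17 pairs). The 3 wider ones are in chains 3, 14 and 16, and only that of chain 16 is much wider, 4.88 kb over a wild-type region of 1.93 kb. Pairing 1 to 1 leaves out knockout regions that joined 2 or more wild-type regions. When all 58 stretches of linked regions were counted, knockout regions covered less than wild-type regions in 50, with a median ratio of 0.718. With 50% overlap asked of both regions of a pair, the median ratio was 0.782 (22 pairs).

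The knockout region lies wholly inside the wild-type region in 29 of the 43 pairs, and in none does it enclose it. Within the 7 pairs of chain 23, the part not called in the knockout is mostly at the end with higher coordinates. All 7 knockout regions paired there stop short of the wild-type end, by 1.05 to 11.9 kb (median 2.59 kb), while 5 of 7 start after the wild-type start, by 0.049 to 3.70 kb. Over all 43 pairs each edge is drawn in equally often, the start in 36 and the end in 36, with median distances of 0.613 and 1.53 kb among those. Both edges agree within 500 bp in 5 pairs.

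**Figure D4:**
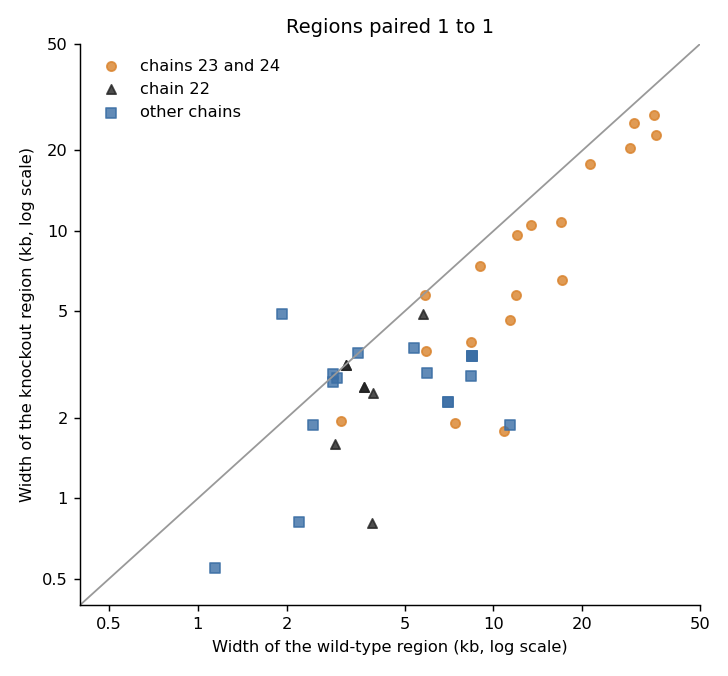
Width in kb of the knockout region against that of the wild-type region (both axes logarithmic) for the 43 pairs, with the line of equal width. Of these, 40 points lie under the line, among them all 18 of chains 23 and 24 and all 8 of chain 22.

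Some regions of the chains come in copies of the same layout. An arrangement was counted as recurring when 2 or more successive wild-type regions had the same widths and gaps, each within 10 bp, as another run on the chromosome, in the same or the mirrored order. Of the 433 chain regions, 63 lie in such arrangements (14.5%), and 28 of these are in chain 22. The longest arrangement has 14 regions. Its first copy spans 216 kb from 33430234 to 33646065 and its second 216 kb from 33657124 to 33872961. The copies lie 226890 bp apart by their starts, and the largest difference in width is 6 bp. Wild-type regions cover 70.8 kb in each copy, of the 265 kb of the chain, and its 4 widest regions are among them.

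The calls of the knockout library were alike in both copies. In each, only the seventh region, 3158 bp wide, was partnered, and its knockout region is 3147 bp wide and starts 1602 bp after it in both. A second pair of identical calls lies elsewhere in the same chain, outside this arrangement. There, wild-type regions of 3639 bp starting at 33186395 and 34137875 each hold a knockout region of 2611 bp that starts 96 bp after them. In chains 31 and 32, wild-type regions of 7035 bp starting at 113044914 and 113301331 each hold a knockout region of 2286 bp, starting 613 bp after them.

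**Figure D5:**
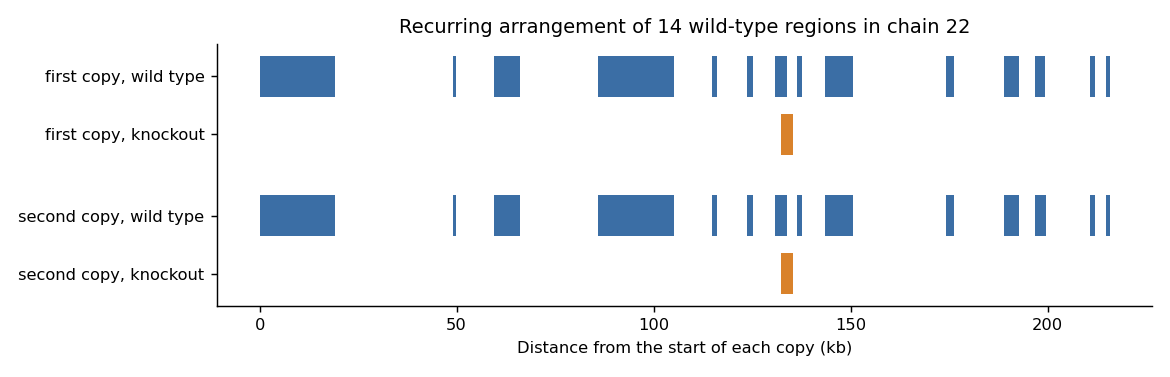
Wild-type and knockout regions in the first and the second copy of the 14-region arrangement of chain 22, by distance in kb from the start of each copy. The 14 wild-type regions coincide, and each copy has 1 knockout region, 3147 bp wide, at the same place.

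In chains 7, 8 and 9 the knockout calls recur as well. Knockout regions of exactly 3401 bp start at 9319999, 10039288 and 10453911, over wild-type regions of 8456, 8443 and 8452 bp. They start 1114 and 1100 bp after the wild-type region in chains 7 and 8, and 3942 bp after it in chain 9, where they end 1109 bp before its end, as in a mirrored copy. In all, 11 of the 59 knockout regions share their exact width with another, in 5 widths. The fifth is 1880 bp, in chains 4 and 7, over wild-type regions of 11386 and 2452 bp. Those widths are not alike, but the call runs 203 bp past the end of the first and starts 203 bp before the second. The edges thus mirror each other, and whether these places are copies was not tested. Over the 14 arrangements of the chromosome whose runs do not overlap each other, 2 of which lie outside the chains, 41 of 42 matched positions were called the same way, 2 partnered in both copies and 39 in neither. Only 5 of the 63 chain regions in arrangements were partnered (7.94%), so most positions would match in this way whether or not the copies were related. Regions of the array in chain 28, described next, enter this count more than once. The exception is a 951 bp region in chain 7, starting at 9167363, which was partnered while its match in chain 8 was not.

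Other recurring arrangements, named by their number of regions, are shorter and were called in wild type alone. Chain 28 is a regular array of 5 regions, 1179 to 1187 bp wide, whose starts are 8747 to 8754 bp apart, from 58202650 to 58238837. It gives the second longest arrangement, of 4 regions, and the fourth, of 3. Chains 17 and 18, from 21164565 to 21214696 and from 23353337 to 23403475, are copies of each other: their 3 regions differ in width by at most 1 bp. None of these regions was partnered. Whether the sequences of the copies are alike was not analysed here, and the labels do not say how reads matching more than 1 place were handled. Without the regions in recurring arrangements, 18.6% of the chain regions were partnered (69 of 370).

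Set beside other clustered regions, less of the wild-type sequence on chromosome 7 was shared. The difference in the share of partnered regions varied in size with the overlap rule, and its sign turned with 1 chain. In the chains of the other autosomes, 320 of 1594 wild-type regions were partnered (20.1%, Wilson 18.2 to 22.1%), against 17.1% on chromosome 7. The difference of -2.99 percentage points has an interval of -6.82 to 1.29 (Newcombe, counting error only), and without the largest chain of chromosome 4 it turns to 0.192. When knockout regions had to cover 50% of the wild-type region, the shares were 9.70% on chromosome 7 and 14.6% on the other autosomes, a difference of -4.85 percentage points (-7.90 to -1.30). With 50% asked of both regions the difference was -3.15 (-5.80 to 0.0379). With neighbours within 10 kb counted as partners it was -0.401 (-5.16 to 4.62), so the intervals of these other rules include 0. Of the wild-type bases, 41.3% lay in a knockout region in the other autosomal chains, against 23.4% on chromosome 7. On chromosome 4 the values are 32.7% of 260 regions and 51.3% of the bases, and on chromosomes 12 and 13, also with many clustered regions, 10.2% of 322 regions and 11.3% of the bases. Chromosome 7 lies between these in both measures. Its knockout sequence was spread over more chains than on chromosome 4, in 16 of 33 against 3 of 14. The counts are 12 of 31 on chromosomes 12 and 13, and 72 of 159 over all autosomes other than 7. That last share, 45.3%, is near the 48.5% of chromosome 7. On chromosome 7 outside the chains, 7 of 119 wild-type regions were partnered (5.88%, Wilson 2.88 to 11.6%). Those regions are narrower, with a median of 971 bp against 2163 bp in the chains.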

How the data were processed

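Bowtie and the mm9 build are named in the submitters' processing notes. No version, no rule for reads matching more than 1 place, and no region caller, caller setting or use of input is recorded in the labels. Each list deposited by the authors belongs to 1 library and gives a chromosome, start, end and a constant strand sign, with no score. Starts were taken as 0-based and are printed 1-based.

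Chaining, overlap (1 base), 1 to 1 pairing and recurring arrangements (10 bp tolerance) were computed in Python 3.11.15 with scipy 1.17.1, and were checked on simulated data. Knockout sequence was clipped to chain spans. Wilson and Newcombe intervals (95%) and limits for a count of 0 (3 counts) cover counting error only. No test was made between genotypes, each 1 library. Members, lists and rules were chosen with earlier results of these data known. Named by rule were chains of 10 or more wild-type regions, the 6 widest regions of each kind, unmatched knockout regions and the 4 longest arrangements. Others were named after their values were seen. Alternatives changed the gap limit, chain size, joining, width, overlap rule and tolerance. No mm9 annotation or genome was used here, so the planned gene lists were used only for gene order in RefSeq's GRCm38 table.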

Additional observations from a re-analysis of the deposited data

How the results depend on the processing

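Of 43 values under changed settings, 34 stayed within their interval or within 1.5 times, 8 moved and 1 reversed. Stricter overlap lowered the share of partnered regions from 17.1% to 9.70% (knockout regions over 50% of the wild-type region) or 7.39% (the same asked of both regions), by construction. Counting neighbours within 10 kb as partners raised it to 30.7%. Among the widest 605 wild-type regions of the series, those in the chains had a share of 41.3%. Leaving out chains 23 and 24, a choice made once values had been seen, gave 12.3%, and moved the ratio of wild-type to knockout sequence from 3.74 to 5.98. Joining neighbours within 10 kb moved that ratio to 6.34. With a tolerance of 50 bp, 108 chain regions were in recurring arrangements instead of 63, and with 5 bp, 55. The difference from other autosomal chains, -2.99 percentage points, reversed to 0.192 without the largest chain of chromosome 4, also a later choice. Where construction does not give it, the cause was not tested. The number of chains ran from 23 to 46. No paired analysis was possible because there is a single H3K9me3 library for either genotype. Depth is unknown and limits every value.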

Other observations

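Recurring arrangements also occur on chromosome 7 outside the chains. A pair of wild-type regions starting at 20821860 recurs at 23017187 with identical widths, 2195327 bp away. Chains 17 and 18, which start at 21164565 and 23353337, are 2188772 bp apart. Another pair starting at 22236313 recurs at 22719119, and a pair outside the chains starting at 7938151 recurs in mirrored order in chain 8 at 9571386. None of these regions was partnered. Of the 11 knockout regions of chromosome 7 outside the chains, 7 overlap a wild-type region.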
